A study of Mus musculus with 6 samples.

Results

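H3K4me1, histone H3 monomethylated at lysine 4, was compared between macrophages treated for 1 h with lipopolysaccharide (LPS) and with PBS. All autosomal peaks of the H3K4me1 lists of both treatments were taken, 71661 of 73049 peaks under LPS and 63640 of 64758 under PBS, out of 142059 peaks in the 4 lists of the study. The cells were bone marrow-derived macrophages (BMDMs) grown from C57BL/6 mice of one genotype, with no other allele or agent in either arm. The profiles came from CUT&RUN, in which an antibody directs a nuclease to chromatin and the released DNA is sequenced. The study sought enhancers that respond to LPS, and its 6 samples were 1 library each for H3K4me1, H3K27ac and control IgG under each treatment. Whether bone marrow of several mice was pooled is not given in the sources used here. With 1 library per treatment there is no replicate error, no test was possible, and each difference below is one between 2 lists of peaks.

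Monomethylation of H3K4 marks enhancers and the flanks of promoters, including enhancers that are primed but not yet active. Acetylation of H3K27 is added when enhancers and promoters become active. In macrophages the enhancer repertoire is laid down by lineage factors such as PU.1 and C/EBP, and LPS, sensed by TLR4, then acts through NF-kB, AP-1 and interferon regulatory factors on these regions and on a smaller number of latent ones. Primary response genes are transcribed within minutes to an hour of LPS, and interferon-dependent genes follow later.

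Windows of 300 bp, each centred on a peak summit, are shown first as examples of the 3 kinds of sequence compared below. They were taken from GRCm38 (RefSeq), plus strand, and lie in introns or between genes. Capitals mark matches to the motifs described further on. The first pair held an LPS peak with no PBS peak and lies at the 2 loci with the largest gain of covered length. The Tpd52 window holds none of the motifs, and the Plekho2 window holds a RUNX match at base 12.
Tpd52, chr3:8980989-8981288: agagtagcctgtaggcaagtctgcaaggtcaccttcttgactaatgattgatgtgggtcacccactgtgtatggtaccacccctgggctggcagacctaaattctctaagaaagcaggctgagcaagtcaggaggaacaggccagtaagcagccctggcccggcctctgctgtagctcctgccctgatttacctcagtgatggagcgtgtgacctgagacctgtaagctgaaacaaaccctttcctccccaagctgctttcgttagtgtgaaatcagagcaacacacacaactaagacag
Plekho2, chr9:65538008-65538307: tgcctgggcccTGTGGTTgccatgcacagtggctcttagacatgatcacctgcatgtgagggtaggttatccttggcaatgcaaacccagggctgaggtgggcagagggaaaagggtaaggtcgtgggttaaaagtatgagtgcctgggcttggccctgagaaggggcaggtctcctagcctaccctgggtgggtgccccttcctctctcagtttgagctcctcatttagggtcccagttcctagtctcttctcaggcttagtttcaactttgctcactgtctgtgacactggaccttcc
The next 3 held a PBS peak with no LPS peak, at loci with a large loss of covered length. They are places 1, 4 and 5 by loss. Itgav, place 3, has an intron window without a match and is not shown, so these matches do not give the frequency of the motifs. The Fnbp1l window has no match, the Ccl7 window has matches to IRF, C/EBP and AP-1 at bases 7, 252 and 272, and the Fbxo48 window has an IRF match at base 125 on the minus strand.
Fnbp1l, chr3:122571758-122572057: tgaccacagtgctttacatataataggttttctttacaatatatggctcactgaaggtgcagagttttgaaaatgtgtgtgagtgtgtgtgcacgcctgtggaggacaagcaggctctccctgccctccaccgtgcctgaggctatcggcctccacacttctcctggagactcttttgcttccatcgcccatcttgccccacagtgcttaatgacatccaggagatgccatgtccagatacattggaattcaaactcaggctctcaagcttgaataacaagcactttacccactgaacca
Ccl7, chr11:82092427-82092726: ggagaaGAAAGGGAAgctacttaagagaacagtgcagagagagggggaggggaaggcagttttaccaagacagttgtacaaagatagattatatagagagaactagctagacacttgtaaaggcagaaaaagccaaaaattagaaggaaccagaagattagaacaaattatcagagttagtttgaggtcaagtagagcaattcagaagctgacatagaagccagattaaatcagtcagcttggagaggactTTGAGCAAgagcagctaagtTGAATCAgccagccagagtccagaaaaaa
Fbxo48, chr11:16987659-16987958: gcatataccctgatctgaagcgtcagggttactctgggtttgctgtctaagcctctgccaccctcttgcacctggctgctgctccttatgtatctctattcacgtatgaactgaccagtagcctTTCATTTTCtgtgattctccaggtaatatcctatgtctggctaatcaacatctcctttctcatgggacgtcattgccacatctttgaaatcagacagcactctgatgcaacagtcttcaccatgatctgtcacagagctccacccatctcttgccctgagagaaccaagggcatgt
The last is the strongest LPS peak shared by both lists at Cd93, a locus of nearly equal covered length, chosen after its values were seen. It has a PU.1 match at base 78 on the minus strand.
Cd93, chr2:148490709-148491008: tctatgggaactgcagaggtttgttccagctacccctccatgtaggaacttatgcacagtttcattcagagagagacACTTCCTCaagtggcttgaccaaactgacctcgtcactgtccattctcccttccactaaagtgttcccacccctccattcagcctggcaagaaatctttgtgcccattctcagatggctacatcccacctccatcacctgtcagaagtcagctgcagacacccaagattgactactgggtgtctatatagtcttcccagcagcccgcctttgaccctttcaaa

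The LPS list was the longer. Autosomal peaks covered 38.2 Mb under LPS and 30.7 Mb under PBS, a ratio of 1.25 (log2 0.32). They shared 20.5 Mb, while 17.7 Mb were covered in the LPS list alone and 10.2 Mb in the PBS list alone. Depth estimated from the deposited peak values was similar, about 7000000 fragments under LPS and 6870000 under PBS. The median was 17 fragments at a summit in each list. The part of the depth difference and of chance sampling in the longer LPS list was not tested. For each of 20807 autosomal protein-coding genes, peak length was summed within 50 kb on either side of the transcription start site (TSS). Genes with less than 2000 bp over both lists were set aside, which left 10520 genes and removed 10287, of which 5451 had 0 bp in both lists.

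Macrophage genes carried more of the mark than marker genes of other tissues. The 30 macrophage identity genes were all counted and had medians of 11562.5 (LPS) and 8081 bp (PBS). Among 29 autosomal marker genes of other tissues the median was 0 bp in both lists, 14 had 0 bp in both, and 5 were counted. Named after its value was seen, the longest of these windows was that of Ttr, a liver and choroid plexus gene, with 12230 against 7099 bp. Fibroblast markers, a list of 10, had medians of 353.5 and 76 bp, with Col1a2, Col3a1, Dcn and Lum at 0 in both lists, while Pdgfrb had 5699 against 3984 bp, Thy1 2416 against 1206 bp and Pdgfra 1504 against 1029 bp. The 16 lymphoid and dendritic markers had medians of 867.5 and 359.5 bp, and Bcl11b was the only one at 0 in both lists. Named after their values were seen, Flt3 had 12641 against 7105 bp, Cd4 10830 against 7794 bp and Xcr1 2643 against 3477 bp. Neutrophil precursor markers, 12 genes, had medians of 3596 and 3374.5 bp. In the window of Elane, a granule protease gene of neutrophil precursors, 12228 bp were covered under LPS and 8018 bp under PBS. Ltf had 6816 against 3376 bp, while Ngp had 3908 against 4571 bp and Csf3r 3284 against 3373 bp. For Ly6g, a marker of mature neutrophils, the length was 0 in both lists. The share of other cells in the cultures was not tested.

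Around most genes more sequence was covered under LPS. Covered length was higher under LPS for 8521 genes (81.0%), lower for 1994 (19.0%) and equal for 5. Medians over the counted genes were 3840.5 bp (LPS) and 2816 bp (PBS), with a median difference of 980.5 bp and a median log2 ratio of 0.35, where 500 bp were added to both lengths. With a 2-fold limit on this ratio, 945 genes (8.98%) had a gain and 50 (0.475%) a loss, and 3361 (31.9%) differed by no more than 0.25 on the log2 scale and were called little changed. Genes that share a window are not independent. The gains came down to 476 loci with TSSs more than 50 kb apart and the losses to 33. Windows of such loci can still overlap and share peaks, as those of Fth1 and Incenp do among the loci named below. In 5 of the gain genes and 2 of the loss genes the lower list had 0 bp. Just inside the limit for a gain stood Rsrc1, with 2362 against 931 bp, and just outside it Plin2, with 17752 against 8628 bp. At the limit for a loss stood Ms4a6d, with 503 against 1510 bp, and just outside it Nf1, with 1243 against 2960 bp.

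The balance of gains and losses changed with how the unequal lengths of the lists were treated. With each list scaled to the same total, the median log2 ratio moved from 0.35 to 0.07, gains came to 443 and losses to 127, and the share of gains among both fell from 94.97% to 77.7%. The LPS list was also trimmed of its weakest peaks to the covered length of the PBS list. Of the 9670 genes then counted, 253 had a gain and 392 a loss. The direction for a gene is therefore given below for the lists as deposited, with the scaled value where it changes sign.

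**Figure D1:**
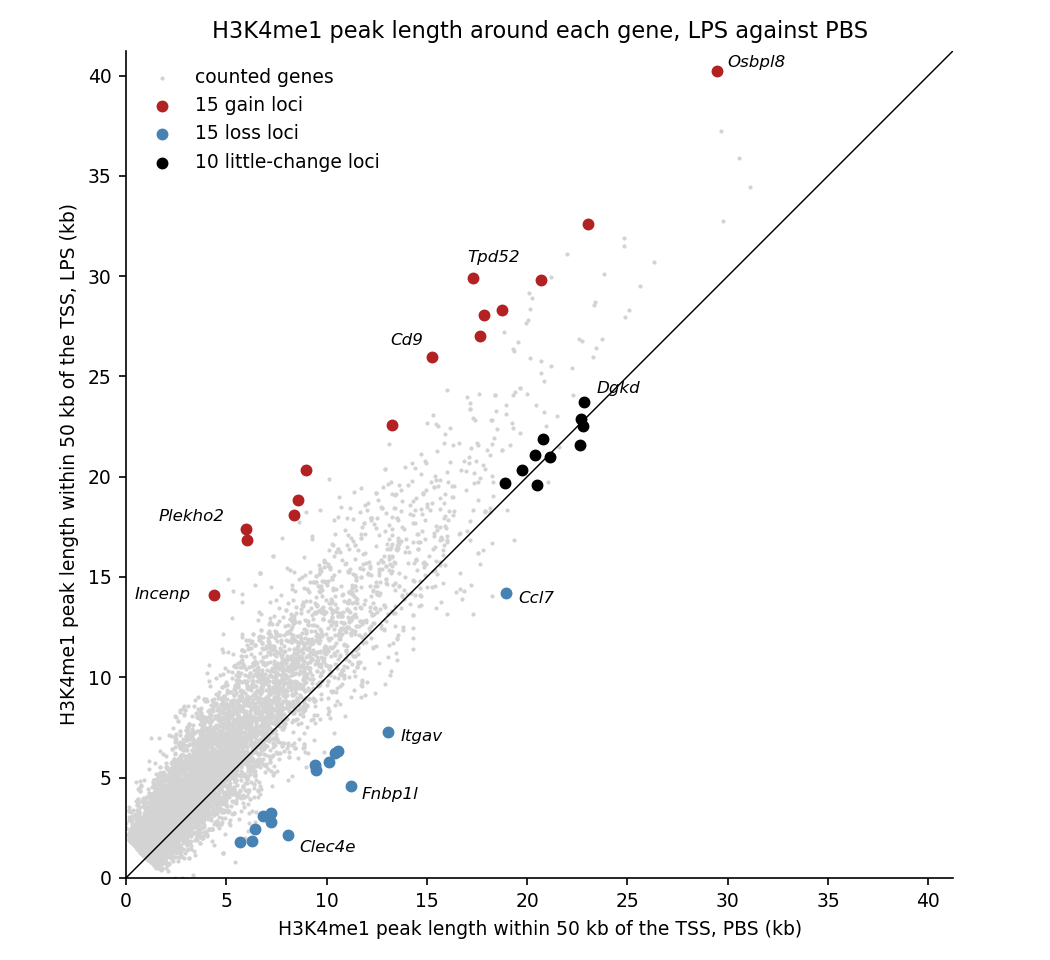
H3K4me1 peak length within 50 kb of the TSS of each of the 10520 counted genes (grey), in kb, under PBS (x axis) and LPS (y axis), with 1 library per treatment, and a line at equal length. The 15 loci of largest gain (red) lie above the line, the 15 of largest loss (blue) below it, and the 10 long loci of little change (black) on it between 18.9 and 23.7 kb.

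The largest gain was at Tpd52, which encodes a protein of membrane trafficking, on chromosome 3 with its TSS at position 9004723. Peaks covered 29886 bp there under LPS, in 54 peaks, and 17311 bp under PBS, in 42. The 2 lists shared 12423 bp, and 17463 bp were in the LPS list alone. In the Plekho2 window on chromosome 9, around position 65580040, 17379 bp were covered under LPS and 5993 bp under PBS, with 42 and 19 peaks. Plekho2 encodes a pleckstrin homology domain protein. Its LPS peaks were spread from the gene body of Plekho2 towards Ankdd1a, whose own window overlaps it and had 16848 against 6009 bp. The window of Cd300lb, an immune receptor gene of the CD300 family that also holds the TSSs of Cd300a and Cd300c, had 20344 against 8975 bp.

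Other gain loci were centred on Fth1, Tmem91, Incenp, Osbpl8, Cd9, Gpr18 and Dram1. The window of Fth1, the ferritin heavy chain gene, had 18099 against 8372 bp. The window centred on Tmem91 also holds the TSS of Tgfb1, the gene of a regulatory cytokine, and had 18832 against 8578 bp. The smallest starting length was at Incenp, a gene of the chromosomal passenger complex, with 14090 against 4376 bp and a log2 ratio of 1.58. The longest window of all 15 was that of Osbpl8, which encodes a lipid transfer protein of the endoplasmic reticulum, with 40237 against 29478 bp and a log2 ratio of 0.44. Cd9, a tetraspanin gene, had 25944 against 15264 bp. The window of Gpr18 and Gpr183, the second a receptor gene for oxysterols, had 28289 against 18748 bp, and that of Dram1, an autophagy gene induced by p53, had 27038 against 17654 bp. Cmip, Fam49b, Fam198b and Slc45a4 completed the set. Over the 15 loci the difference ranged from 9125 to 12575 bp, 6 reached 2-fold, and all 15 stayed longer under LPS after scaling.

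**Figure D2:**
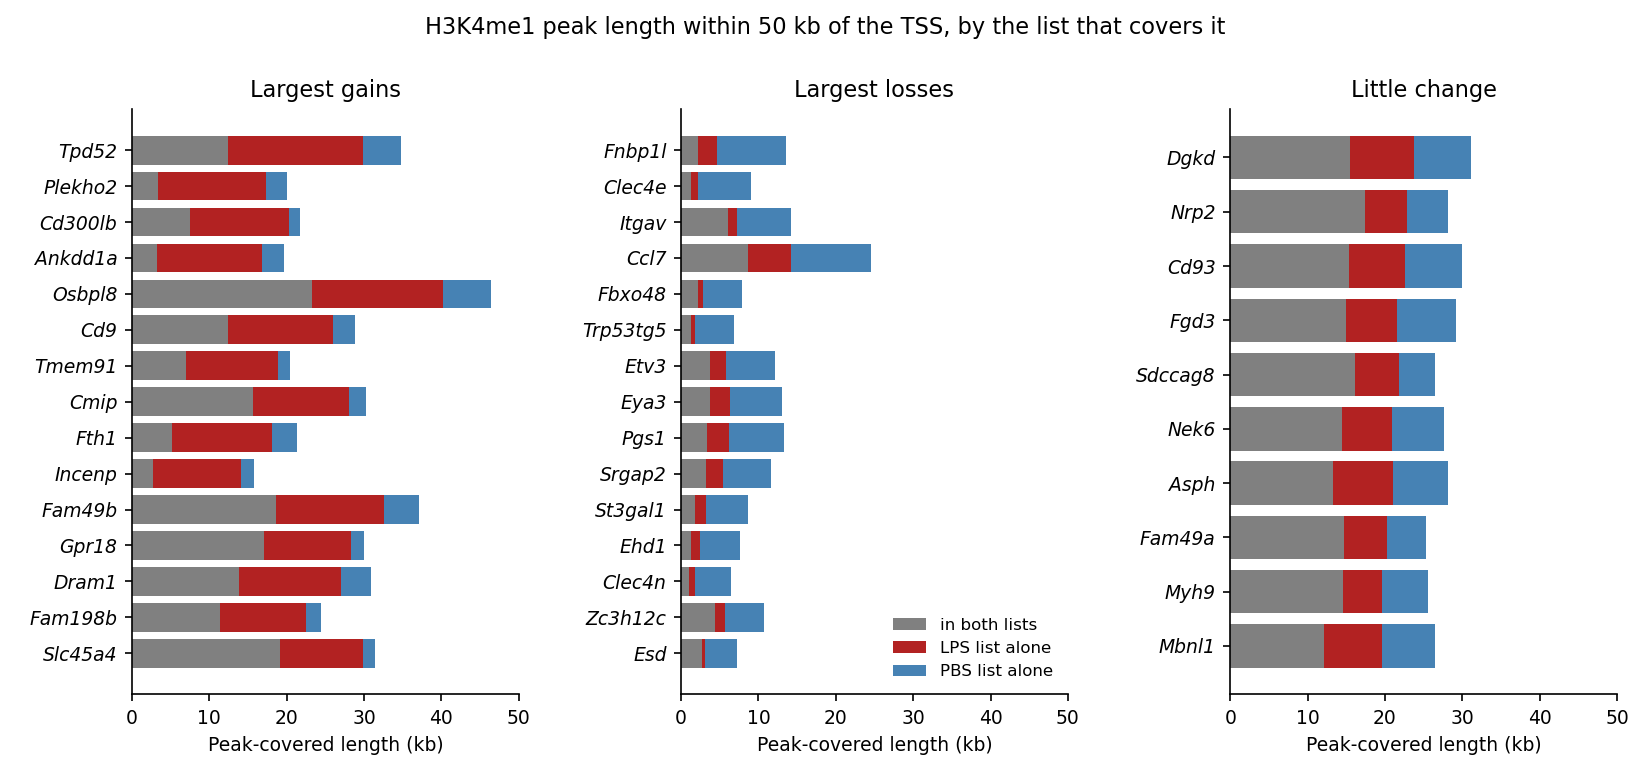
Peak-covered length within 50 kb of the TSS, in kb, split into sequence covered in both lists (grey), in the LPS list alone (red) and in the PBS list alone (blue), for the 15 loci of largest gain, the 15 of largest loss and 10 long loci of little change, with 1 library per treatment. At Tpd52 17463 bp were in the LPS list alone, at Fnbp1l 8983 bp were in the PBS list alone, and even the little-change loci had between 4660 and 8268 bp in each list alone.

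The losses were smaller in length, and C-type lectin and chemokine genes were among the first 15. The largest was at Fnbp1l, which encodes an adaptor of actin assembly, on chromosome 3 around position 122619715. It had 4573 bp under LPS and 11221 bp under PBS, and 8983 bp of the PBS length was in the PBS list alone. Clec4e, the gene of the lectin receptor Mincle, on chromosome 6 around position 123289870, had 2133 against 8095 bp in 11 and 21 peaks, a log2 ratio of -1.71. Its window includes the TSS of Clec4d, a partner lectin receptor. The neighbouring window of Clec4n, which encodes Dectin-2, overlaps it and had 1793 against 5667 bp. Both lectin windows hold the same 2001 bp of LPS H3K27ac peaks, which ranks 14 among the 10520 counted genes. The map of peaks by distance from the TSS shows PBS peaks over the first few kb of Clec4e where the LPS list had fewer and narrower ones.

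Chemokine and feedback genes were also in the set. The window of Ccl7, which includes Ccl2 and Ccl11, all genes of leukocyte attractants, had 14211 bp under LPS and 18944 bp under PBS. Both lists covered 8634 bp of it, and no LPS H3K27ac peak was called there. The LPS H3K27ac list was short, 4120 peaks over 0.763 Mb, so the lack of a peak does not show a lack of acetylation. The window centred on Pgs1 holds the TSS of Socs3, the gene of a cytokine signalling inhibitor, and had 6213 against 10407 bp. Zc3h12c, a gene of the Regnase family of RNA-degrading enzymes, had 5617 against 9428 bp. Etv3, an ETS-family repressor gene, had 5790 against 10106 bp. None of these loci reached 2-fold, with log2 ratios of -0.40 at Ccl7, -0.70 at Pgs1 and Zc3h12c, and -0.75 at Etv3.

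Further loss loci were centred on Itgav, Trp53tg5, Ehd1 and Fbxo48. Itgav, the integrin alpha V gene, had 7253 against 13045 bp. The window centred on Trp53tg5 holds the TSS of the syndecan gene Sdc4 and had 1828 against 6277 bp, a log2 ratio of -1.54. Ehd1, a gene of endocytic recycling, had 2435 against 6419 bp, and the window of Fbxo48 had 2762 against 7249 bp, with its strongest unmatched PBS peak in an intron of Plek, the pleckstrin gene. Eya3, Srgap2, St3gal1 and Esd completed the set. Over the 15 loci the difference ranged from -6648 to -3750 bp, 8 reached 2-fold, and all 15 remained shorter under LPS after scaling. In a window of 10 kb only 12 of the 15 kept a loss.

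**Figure D3:**
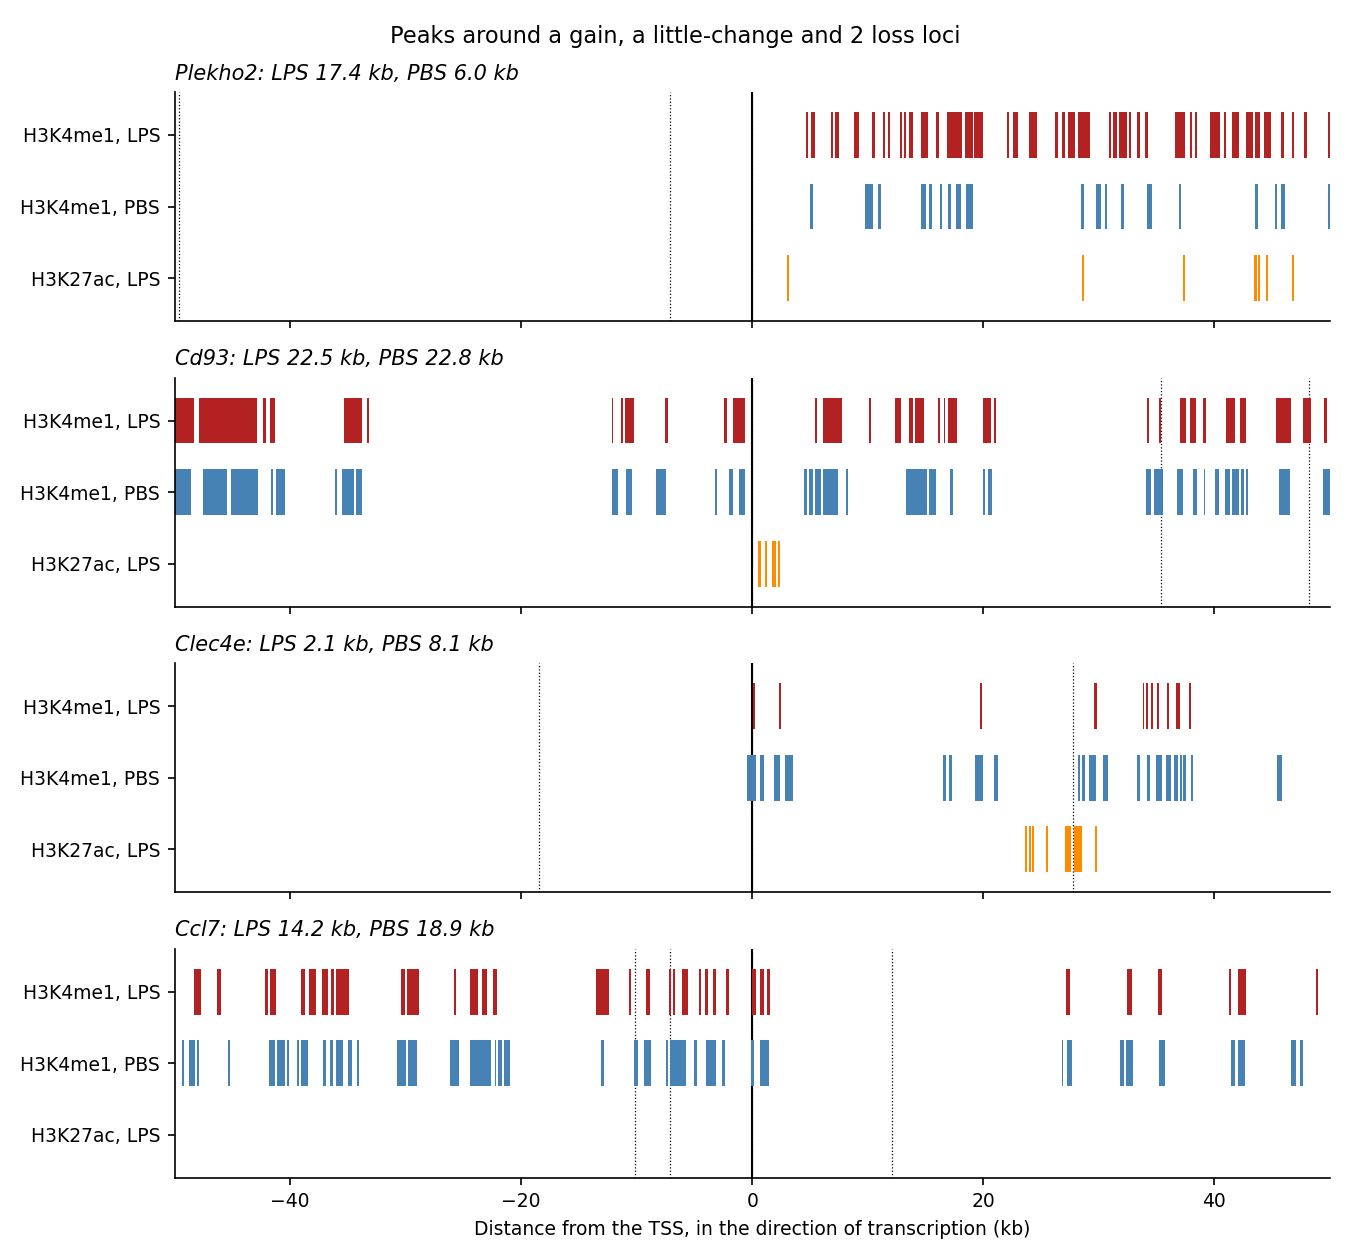
Peaks within 50 kb of the TSS of Plekho2 (gain), Cd93 (little change), Clec4e and Ccl7 (loss), by distance in kb in the direction of transcription, for H3K4me1 under LPS (red) and PBS (blue) and for H3K27ac under LPS (orange), with the TSS as a solid line and TSSs of other coding genes as dotted lines. Plekho2 had 42 LPS peaks against 19 PBS peaks and Clec4e 11 against 21, and the Ccl7 window held no H3K27ac peak.

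Equal totals did not mean the same bases. The 10 loci of little change had 19567 to 23734 bp under LPS and 18890 to 22830 bp under PBS. Of these, 12061 to 17413 bp were in both lists. Over all autosomal peaks 20.5 Mb were in both, of 38.2 Mb under LPS and 30.7 Mb under PBS. At Cd93, a myeloid and endothelial surface receptor gene whose window includes the thrombomodulin gene Thbd, 22542 bp were covered under LPS and 22795 bp under PBS, with 15349 bp in both. Nrp2, the gene of a semaphorin coreceptor, had 22892 and 22684 bp, with 17413 bp in both, the most of the 10. Myh9, the non-muscle myosin heavy chain gene, had 19567 and 20471 bp. Dgkd, Fgd3, Sdccag8, Nek6, Asph, Fam49a and Mbnl1 were the others. After scaling all 10 were shorter under LPS.

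Primary LPS response genes, a list of 40 early-induced genes, had less of the general gain. This list, like the others, was chosen with earlier results of these data known, so it is not an independent set. Its 38 counted members lay at 35 loci. Covered length was lower under LPS for 17 of the 38 counted members (44.7%), against 19.0% of all counted genes. A gain was called for 2 and a loss for none, against 8.98% and 0.475% of all counted genes, and 17 were little changed, against 31.9%. The median log2 ratio was 0.10, against 0.35 for all counted genes, and became -0.19 after scaling, against 0.07. The largest losses were at Ccl7 and, in the window shared with Pgs1, Socs3. Ccl2, in the window shared with Ccl7, had 13136 against 17294 bp. Nfkbia, the gene of the NF-kB inhibitor, had 3217 against 6122 bp, and Tnfaip3, the gene of the ubiquitin-editing inhibitor A20, had 2946 and 5626 bp. The largest gains were at Atf3, an LPS-induced repressor gene, with 25182 against 20693 bp, and at Dusp1, a MAP kinase phosphatase gene, with 6752 against 2465 bp. The difference at Atf3 turned negative after scaling, with a log2 ratio of -0.03, and that at Dusp1 stayed at 1.01.

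Late and interferon response genes were close to the primary ones. Of 26 counted members 11 had less covered length under LPS (42.3%, against 19.0% of all counted genes). A gain was called for 3 and a loss for none, near the 8.98% and 0.475% of all counted genes, and the median log2 ratio was 0.17, or -0.11 after scaling. Acod1, the gene of the itaconate-producing enzyme, had 9644 against 12907 bp, and Ccl5, a T-cell attractant gene, had 3552 against 5878 bp. Ifit2, an interferon-induced antiviral gene, had 10857 against 7854 bp and Cxcl9, a chemokine gene induced by interferon gamma, 8203 against 5490 bp.

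The lists of macrophage identity, TLR4 signalling, housekeeping and H3K4 methylation enzyme genes had medians nearer to that of all counted genes. Macrophage identity genes were lower under LPS in 3 of 30 (10.0%, against 19.0%), with a median log2 ratio of 0.42, or 0.12 after scaling. Irf8, a lineage transcription factor gene, had 21637 bp under LPS and 13101 bp under PBS, Apoe 12162 and 5799 bp, while the Fc receptor genes Fcgr3 and Fcgr1 had differences of -204 and -137 bp. Among 28 counted TLR4 signalling genes 5 were lower (17.9%, against 19.0% of all counted genes) and 1 had a gain (against 8.98%), and the median was 0.32, or 0.02 after scaling. Tlr4 itself had 20801 against 16866 bp and Mapk14, the p38 kinase gene, 10353 against 6573 bp, whereas Nfkb1 had 6211 against 9060 bp and Tab2, an adaptor gene of TAK1, 3007 against 4213 bp. After scaling the log2 ratio was -0.01 at Tlr4. One of 17 housekeeping genes was lower, Polr2a, the gene of the largest subunit of RNA polymerase II, with a difference of -413 bp. Rplp0, a ribosomal protein gene, and Eef2, a translation elongation factor gene, had differences of 5574 and 4102 bp. Of 11 genes of H3K4 methylation enzymes 4 were lower (36.4%, against 19.0% of all counted genes), and the median was 0.30. Among the 4 were the methyltransferase genes Kmt2b and Kmt2a, with -684 and -649 bp. A gain was called for 1 (against 8.98%), the methyltransferase gene Kmt2d, with 1909 against 307 bp, and a loss for none. Wdr5, the gene of a subunit that these methyltransferases share, and Kmt2e had differences of 2022 and 1896 bp, with scaled log2 ratios of 0.40 and -0.05.

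**Figure D4:**
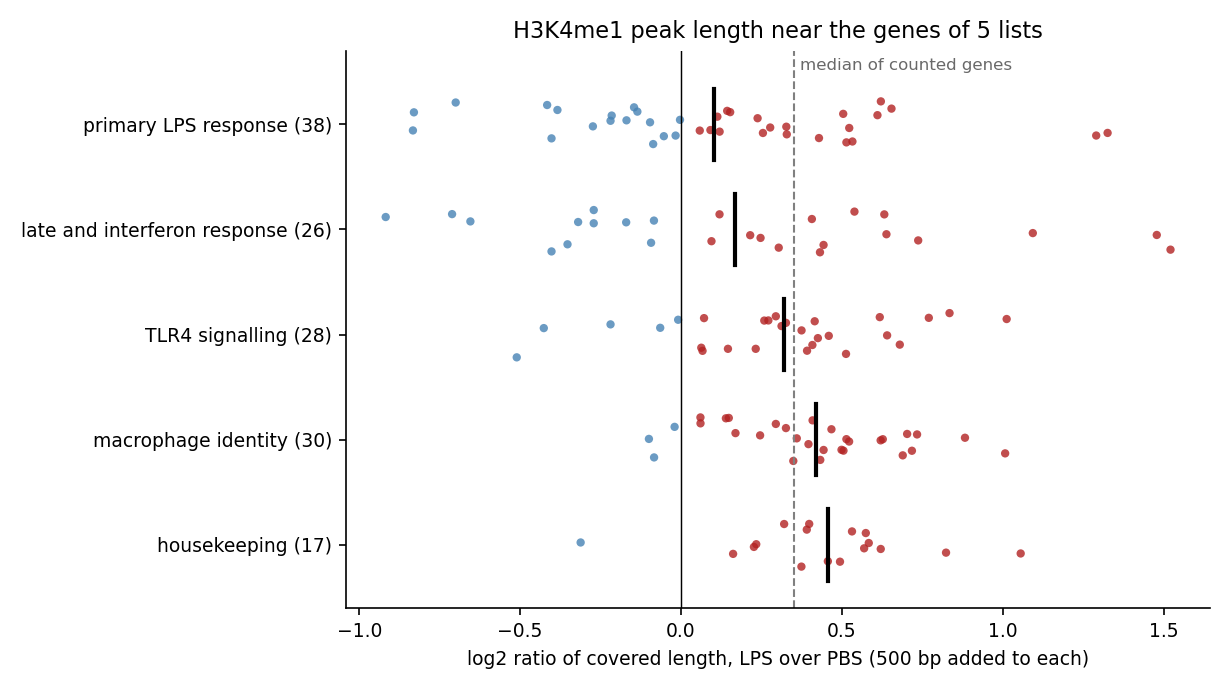
The log2 ratio of covered length, LPS over PBS with 500 bp added to each, for the counted genes of 5 lists, 1 point per gene (blue, lower under LPS; red, higher), with vertical jitter, the list median as a bar and the median of all counted genes, 0.35, as a dashed line. The medians were 0.10 for primary and 0.17 for late response genes, both negative after scaling, and 0.32 to 0.46 for the other 3 lists, which stayed positive.

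The primary genes differed most from other genes near the TSS, in rings of distance that were chosen after the window values were seen. Within 5 kb of the TSS, covered length was lower under LPS for 20 of 38 primary genes and higher for 14, against 20.9% lower among all counted genes. The summed LPS to PBS ratio of the 38 genes within 5 kb was 0.7996, against 1.42 for all counted genes. With the LPS list trimmed to the length of the PBS list 25 genes were lower and 7 higher, with a ratio of 0.556 against 1.05. The ratio came nearer to 1 with only peaks of a −log10 q of at least 5, with 16 lower and 11 higher and 0.967 against 1.51, and with a fold enrichment of at least 5, with 18 and 13 and 0.937 against 1.42. With peaks joined within 1000 bp it was 18 and 16, and 0.804 against 1.39. Between 5 and 50 kb it was lower for 10 of 38, against 21.0% of all. Summed over the 38 genes, the LPS to PBS ratio was 0.695 within 1 kb, 0.828 from 1 to 5 kb, 1.03 from 5 to 10 kb, 1.10 from 10 to 25 kb and 1.09 from 25 to 50 kb. Over all counted genes the ratio was instead greatest at the TSS, 1.66 within 1 kb, and lay between 1.28 and 1.36 farther out. On the scaled lists, where a ratio of 1.25 is parity, the primary genes were below parity at every distance. Late genes were lower within 5 kb in 9 of 26 and higher in 14, with a summed ratio of 1.05, which is below parity after scaling, and identity genes lower in 6 of 30 and higher in 22, with a ratio of 1.43.

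Named after their values were seen, the primary genes with the largest deficits within 5 kb were Traf1, a signalling adaptor gene of TNF receptors, Il10 and Ccl4. Traf1 had 453 against 2044 bp. Il10, an anti-inflammatory cytokine gene, had 1225 and 2797 bp. Ccl4, a chemokine gene, had 164 and 1693 bp, Rel, an NF-kB subunit gene, 0 and 1152 bp, and Nfkbia 188 and 1109 bp. Beyond 5 kb Traf1, Il10, Ccl4 and Rel had more covered length under LPS in the lists as deposited, such as 5749 against 4662 bp at Ccl4, but after scaling Traf1 and Ccl4 had less there. Nfkbia had less in the deposited lists too, 3029 against 5013 bp. At the other end stood Irf1, a transcription factor gene, with 1186 against 126 bp within 5 kb, Nlrp3, the inflammasome sensor gene, with 2091 against 1039 bp, and Egr1, an immediate-early factor gene, with 2061 against 1043 bp. Among late genes Acod1 had 555 against 3396 bp within 5 kb and Rsad2, an antiviral enzyme gene, 2184 against 3949 bp.

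**Figure D5:**
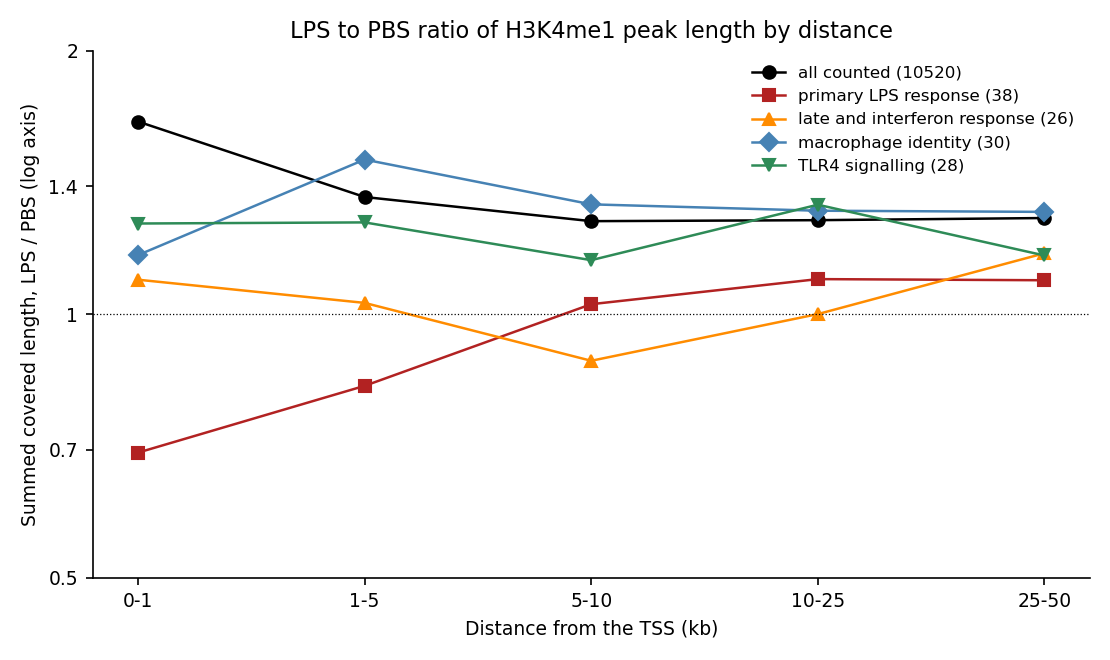
Summed H3K4me1 peak length under LPS divided by that under PBS (log axis), in rings of distance from the TSS in kb, for all 10520 counted genes and 4 gene lists, with 1 library per treatment and the number of genes in brackets. Primary response genes ran from 0.695 within 1 kb to 1.09 at 25 to 50 kb, while all counted genes ran from 1.66 to 1.29. On scaled lists parity is at 1.25 and the primary genes lie below it throughout.

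Of 7 cytokine genes 6 were counted, and 4 of these were little changed, namely Tnf and Lta, which share the same peaks, Ltb and Il12b, beside 31.9% of all counted genes. Tnf and Lta, the genes of tumour necrosis factor and lymphotoxin alpha, had 6815 bp under LPS and 7536 bp under PBS, with 3098 bp in both. The difference was -379 bp at Ltb, -956 bp at Il10, 693 bp at Il1b and 1305 bp at Il12b. After scaling the log2 ratio was -0.43 at Tnf and Lta, -0.37 at Ltb and -0.05 at Il12b. Of the 4 genes called little changed, only Il12b was then within that limit. Around Il6 no LPS peak was called and 419 bp were covered under PBS, so it was not counted.

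Genome-wide, the extra LPS length was proportionally greatest at promoters. The ratio of covered length was 1.71 within 1 kb of a coding TSS, 1.35 from 1 to 5 kb, 1.24 from 5 to 10 kb and 1.19 beyond 50 kb. It was 1.42 in exons and 1.23 both in introns and between genes. After scaling, with parity at 1.25, all of these but the 2 nearest to the TSS and the exons were slightly below parity. Much of the length in one list alone came from the edges of peaks that had a match, since only 45.6% of the LPS-alone and 43.8% of the PBS-alone length lay in peaks without a match in the other list.

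Peaks without a match were narrower and shallower. In the LPS list 27601 peaks (38.5%, 95% Wilson interval 38.2 to 38.9) had no PBS peak overlapping by at least 1 bp, with a median width of 239 bp and 14 fragments at the summit, against 502 bp and 20 fragments for the matched LPS peaks. In the PBS list 16925 peaks (26.6%, 26.3 to 26.9) had no match, with 213 bp and 13 fragments. The intervals cover counting error only. Of the unmatched LPS peaks 12.0% lay within 1 kb of a coding TSS, of the unmatched PBS peaks 8.35%, and of the matched LPS peaks 4.25%. At the named loci the strongest unmatched peaks had 14 to 34 fragments at the summit, 34 at Tmem91 and 14 at Clec4n. Counted over all peaks, matched or not, 5358 PBS peaks (8.42%) had a summit that the LPS list left bare while LPS peaks lay within 1000 bp on both sides. The same was true of 5648 LPS peaks (7.88%) in the PBS list. Both counts can include the unmatched peaks above and are not additional to them.

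PU.1 and AP-1 motifs were more frequent in matched than in unmatched peaks. The 7 motifs were searched on both strands in 300 bp around each summit, and matches of different motifs may overlap. PU.1 (GAGGAAGT), the lineage factor of macrophages, was found in 6.91% of matched LPS windows (95% Wilson interval 6.68 to 7.15), 4.28% of unmatched LPS windows (4.05 to 4.52), 5.21% of unmatched PBS windows (4.88 to 5.55) and 3.08% of windows of the same length around coding TSSs. AP-1 (TGANTCA) was in 14.9%, 12.6%, 12.2% and 5.95% of the same windows, and RUNX (TGTGGTT) in 8.65%, 7.70%, 8.47% and 4.61%. C/EBP (TTGCNNAA) was in 13.7%, 12.5%, 13.2% and 8.58%, and IRF (GAAANNGAA) in 10.1%, 9.68%, 10.4% and 7.50%. NF-kB (GGANTTTCC), the main effector of TLR4, was in 1.39% of matched LPS, 1.46% of unmatched LPS (1.33 to 1.61) and 1.21% of unmatched PBS windows (1.05 to 1.38), so that the last 2 intervals overlapped. The E-box (CACGTG) was more frequent around TSSs, 7.52%, than in unmatched LPS windows, 4.98%. A match is a run of letters and not a bound site, and the part of peak depth in these shares was not tested.

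H3K27ac peaks under LPS were about as frequent near gain genes as near all counted genes over all covered lengths. They were few, 4120 over 0.763 Mb, so the shares below describe called peaks and not the absence of the mark. A peak lay in the windows of 17 of the 30 macrophage identity genes, and those of Csf1r and Irf8 had none. A peak of LPS H3K27ac lay in the window of 35.8% of gain genes (95% Wilson interval 32.8 to 38.9), 30.0% of loss genes (15 of 50, 19.1 to 43.8), 37.0% of little-change genes and 37.4% of all counted genes (36.4 to 38.3). Among genes of similar mean covered length the shares for a log2 ratio of at least 1 were 31.0% against 25.5% of all genes with 1000 to 2000 bp, 33.7% against 33.4% with 2000 to 4000 bp, 47.4% against 42.3% with 4000 to 8000 bp, and 20 of 23 (87.0%, 67.9 to 95.5) against 57.3% with 8000 bp and over. For a log2 ratio under -0.5 they were 28.4%, 47.9%, 49.0% and, of 5 genes, 60.0% in the same order. Genes of a band can share a window and an H3K27ac peak. Among the named loci it was present at 9 of the 15 gains, 8 of the 15 losses and 9 of the 10 little changed. Of the gain loci Fth1 had the most, 1899 bp, and Tpd52 and Cd9 had none. Summits of LPS H3K27ac were found at 40.1 per Mb of H3K4me1 in both lists, 22.7 per Mb of LPS-alone and 25.4 per Mb of PBS-alone sequence. Within 5 kb of the TSS the LPS to PBS ratio of H3K4me1 length was 1.34 for the 1231 counted genes with an LPS H3K27ac peak there and 1.43 for the 9289 without. Among primary genes it was 0.610 for the 12 with such a peak and 0.900 for the 26 without, and among late genes 0.766 for 9 and 1.33 for 17. These splits were also chosen after the values were seen, rest on few genes and have no error estimate.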

How the data were processed

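CUT&RUN peaks of H3K4me1 under LPS and PBS, and of H3K27ac under LPS, were analysed, and no value of the IgG libraries was used directly. By their methods, the authors aligned reads to GRCm38 with Bowtie2 2.4.4, excluded blacklisted regions and called peaks per library with MACS2 2.2.7.1. The deposited lists give each peak's limits and summit, a score (10 times the −log10 q, cut to a whole number), which was not used, a fold enrichment over local background, and the −log10 of the p-value and of the q-value, all computed by the authors. Depth was recovered here from fold enrichment and p. The recovered scale returned the deposited p within 0.002 for at least 99.997% of peaks, and intervals and depth cover counting error only. That check covers the scale and the fragments at summits. The total fragments also took the smallest peak width as the fragment length and the lowest common background level as that of the genome. Neither assumption was checked.

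Overlapping peaks were merged and the covered length within 50 kb of the TSS of each autosomal protein-coding gene (GENCODE M21) was summed with Python 3.11.15, numpy 2.4.6 and pandas 2.3.3. Genes with a sum of at least 2000 bp were counted, and 500 bp were added for log2 ratios. On simulated peaks the code gave the base-by-base length for 719 of 719 genes. Named loci were the 15 largest gains, 15 largest losses and the 10 longest with a difference within 5%, leaving out TSSs within 50 kb of one already taken, then the 2 most extreme genes in each direction of each list and 7 cytokine genes. For the marker lists of other cells and tissues not all of these are printed. The members and lists were chosen with earlier results of these data known. Alternatives covered the window, peak limits, scaling, added length, filter, TSS choice and merging distance.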

Additional observations from a re-analysis of the deposited data

How the results depend on the processing

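No paired analysis was possible because each treatment had 1 library. Several of the 13 alternatives changed the number of genes counted, 10520 as reported, so their counts are not shares of one total. A window of 10 kb counted 4271 genes and gave 451 gains, 1323 little-changed genes and a median difference of 639 bp. Scaling to the list totals gave 443 gains, 127 losses and a median of 215 bp. Lists of equal covered length, with the LPS list cut to 46235 peaks, counted 9670 genes. They gave 253 gains, 392 losses and a median of 159.5 bp, so that losses then outnumbered gains. A −log10 q of at least 5 gave 162 losses among 8714 counted genes. A fold enrichment of at least 5 gave 159 among 9466, and 250 bp added gave 78 among 10520. With 1000 bp added there were 518 gains and 22 losses. A sum of at least 5000 bp left 6748 genes, with 404 gains and 20 losses. No filter kept all 20807 genes, 5451 of them with 0 bp in both lists. It gave 1705 gains, 151 losses, 9781 little-changed genes and a median of 210 bp. Joining peaks within 1000 bp gave 1652 gains and 172 losses among 11232 genes. The causes of these shifts were not tested. The other values of these 4 results lay within 1.5 times those reported. The sign held at all 15 gain loci under every alternative, but these loci were picked for their size. After scaling 3 of them came within the little-change limit. Among the 15 loss loci the sign held at 12 in the 10 kb window, where St3gal1 reversed (1162 bp), and at all 15 under the other alternatives. Changing the added length or the filter leaves each difference in bp as it is. Under those alternatives the sign could not change at gain or loss loci.

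Over the 11 alternatives other than the added lengths, primary response genes were lower under LPS in 32.5% to 69.4% of counted members. Those of the filter change only which genes are counted. Late genes were lower in 22.7% to 57.7%. Each share was above that of all counted genes under the same alternative, which ranged from 16.2% to 45.0%. For late genes the gap nearly closed with a −log10 q of at least 5, at 5 of 22 (22.7%) against 22.4%. The number of primary genes with less covered length within 5 kb, 20 of 38 as reported, was 16 to 25 under 4 alternatives chosen after seeing the data. Summits had a median of 17 fragments in each list, and 14 (LPS) and 13 (PBS) in peaks without a match.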
